A study of Mus musculus with 14 samples.

Results

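The 9 genes described here are markers or regulators of dendritic cells, namely Cd209a, Zfp366, Ccr7, Apol7c, Cd72, Itgax, Flt3, Xcr1 and Batf3, among 24421 genes of a count table of mouse kidney. They were taken from the table by gene symbol, and all 9 were among the 14854 genes with enough counts to be tested. The set was put together after Cd209a and Zfp366 had been seen to be lower at 4 h and Ccr7 and Apol7c to be higher at 24 h, so the differences of the members from the controls are given as a description without a test. Dendritic cells take up material in a tissue and show fragments of it to T cells on MHC class II. On activation they raise Ccr7, the receptor for the chemokines Ccl19 and Ccl21, and leave for the draining lymph node. Their conventional forms depend on the receptor Flt3 and are divided into a first type, marked by Xcr1 and dependent on the transcription factor Batf3, and a second type that carries lectins such as Cd209a. In kidney the integrin CD11c, encoded by Itgax, is also made by macrophages.

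The study used protein nanocages small enough to be filtered into the kidney tubule. Male C57BL/6J mice received MnDps, Dps or vehicle, each protein into a vein at 18 mg/kg, and messenger RNA of whole kidney was sequenced. The 14 libraries formed 5 groups, MnDps at 24 h (2 libraries), Dps at 24 h (3), MnDps at 4 h (3), Dps at 4 h (3) and vehicle control (3), and no group carried a genetic change according to the labels. The labels give no time point for the controls, do not spell out Dps or MnDps, and do not say whether each library is another animal, so a p-value here covers only the scatter among the libraries sequenced. Levels are normalised read counts in CPM, the usual scaling to library size, and differences are log2 fold changes ± SE. Genes passed where edgeR's quasi-likelihood p, adjusted by Benjamini-Hochberg over all 14854 genes, was below 0.05.

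Total counts ran from 15097093 to 42074942 per library. Genes of renal tubules and glomeruli dominated, with a summed level of 44500 to 69583 CPM for 9 kidney markers, whereas the 9 dendritic cell genes together reached 23.9 to 32.2 CPM in MnDps 4 h kidneys. Zbtb46, the transcription factor that sets conventional dendritic cells apart from macrophages, was present at a mean of 2.27 to 2.94 CPM in the 5 groups. Replicate 1 of the controls stood apart, with 1174 CPM summed over 17 core dendritic cell genes against 679 CPM in each of the other controls, and it held the highest control levels of Ccr7, Cd72, Itgax and Xcr1. The 17 genes include Cd74, H2-Aa, H2-Ab1 and H2-Eb1 of MHC class II presentation, which are not confined to dendritic cells. Their sum is therefore no level of dendritic cells alone. In whole kidney, fewer cells of a type and less RNA per cell cannot be told apart.

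Promoters were to be printed for Cd209a, Zfp366, Ccr7 and Apol7c, the members named in the choice of the set. Of these, only Apol7c and Cd209a had an entry among the promoters used. Each covers 250 bases before to 50 after the gene's start in RefSeq, build GRCm38.p6, 5′ to 3′ on the gene's strand. Apol7c lies on the minus strand of chromosome 15 (window chr15:77533266-77533565) and Cd209a on the minus strand of chromosome 8 (window chr8:3748935-3749234).
Apol7c: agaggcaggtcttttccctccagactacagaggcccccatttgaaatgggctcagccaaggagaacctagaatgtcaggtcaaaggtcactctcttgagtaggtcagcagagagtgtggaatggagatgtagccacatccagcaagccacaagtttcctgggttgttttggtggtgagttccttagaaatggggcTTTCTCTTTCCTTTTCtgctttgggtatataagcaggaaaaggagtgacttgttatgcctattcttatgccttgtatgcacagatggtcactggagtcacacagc
Cd209a: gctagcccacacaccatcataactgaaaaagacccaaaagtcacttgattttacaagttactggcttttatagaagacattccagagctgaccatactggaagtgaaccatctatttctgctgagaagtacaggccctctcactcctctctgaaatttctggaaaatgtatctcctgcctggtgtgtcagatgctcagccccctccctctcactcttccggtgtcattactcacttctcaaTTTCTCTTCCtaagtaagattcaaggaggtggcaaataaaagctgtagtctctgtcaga
Capitals in the Apol7c promoter mark 2 overlapping matches to the interferon-stimulated response element, searched on both strands as GAAANNGAAA, which lie on the opposite strand and begin at positions -55 and -49 from the start. Such a match was present in 3.44% of 32851 promoters of the same length. Capitals in the Cd209a promoter mark a match to the ETS-IRF composite element, searched as GGAANNGAAA, on the opposite strand at position -9, a motif held by 2.72% of promoters. Of the 7 members with a promoter in the table, Batf3 and Cd72 each held 1 match to the PU.1 core GAGGAA, which 28.3% of promoters hold. Itgax held the palindrome TGANTCA of AP-1, found in 7.81% of promoters, at position -56. Flt3 and Xcr1 held no match to these motifs or to the NF-kB consensus, which 4.51% of promoters hold. Zfp366 and Ccr7 were the other two members.

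Cd209a encodes a C-type lectin of the DC-SIGN family (GRCm38 chr8:3743397-3748984). Its level was 0.315 and 0.860 CPM in MnDps 24 h kidneys, 1.12, 0.686 and 1.48 CPM in Dps 24 h kidneys, 0, 0 and 0.0965 CPM in MnDps 4 h kidneys and 0.0708, 0.0966 and 0.0542 CPM in Dps 4 h kidneys, against 1.43, 0.803 and 2.07 CPM in controls. All 6 libraries of the 4 h groups lay below every library of the other 3 groups, and the 24 h libraries overlapped the controls. The 4 h values rest on 2 counts over the MnDps 4 h group and 8 over the Dps 4 h group, against 117 over the controls. Pooled counts at 4 h were 0.0179 times the control level after MnDps (exact 95% interval 0.00214 to 0.0662) and 0.0487 times after Dps (0.0206 to 0.0992), intervals that cover counting error only. The fitted log2 fold changes against control were -1.25 ± 0.51 in MnDps 24 h, -0.44 ± 0.42 in Dps 24 h, -5.46 ± 0.74 in MnDps 4 h and -4.17 ± 0.58 in Dps 4 h kidneys. Without replicate 3 of MnDps 4 h, the library with the 2 counts, the third of these values was -8.22, and without replicate 2 of MnDps 24 h the first was -2.22. No 75-base window of the Cd209a transcript is shared with another gene, and its relatives Cd209b to Cd209g were all under the count filter.

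Zfp366 encodes DC-SCRIPT, a zinc finger regulator of dendritic cells (chr13:99184823-99250656). It measured 0.757 and 1.11 CPM in MnDps 24 h, 0.534, 0.441 and 0.860 CPM in Dps 24 h, 0.261, 0.194 and 0.145 CPM in MnDps 4 h and 1.13, 1.43 and 1.19 CPM in Dps 4 h kidneys, against 0.988, 0.516 and 1.21 CPM in controls. The low 4 h level was that of MnDps, whose 3 libraries lay below all 11 others, while the Dps 4 h libraries reached the highest mean of the 5 groups. Against control, the log2 fold changes were 0.01 ± 0.39 in MnDps 24 h, -0.61 ± 0.36 in Dps 24 h, -2.20 ± 0.43 in MnDps 4 h and 0.41 ± 0.32 in Dps 4 h kidneys. The difference of MnDps 4 h from Dps 4 h was -2.61 ± 0.40, and it lay between -2.84 and -2.27 in 22 alternatives, the correction for transcript length and GC content among them. Since Zfp366 was picked for its 4 h level, this difference is a description. The longest transcript of Zfp366 has 6382 bases, against a median of 3292 bases over tested genes.

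Ccr7, the homing receptor named above (chr11:99144196-99155077), was higher in every treated library than in any control. It stood at 3.28 and 4.01 CPM in MnDps 24 h, 1.55, 2.45 and 1.48 CPM in Dps 24 h, 1.61, 1.67 and 3.23 CPM in MnDps 4 h and 1.39, 2.29 and 1.08 CPM in Dps 4 h kidneys, against 0.494, 0.229 and 0.242 CPM in controls. The mean was 11.3 times the control mean in MnDps 24 h, 5.67 times in Dps 24 h, 6.74 times in MnDps 4 h and 4.94 times in Dps 4 h kidneys. On the log2 scale these differences were 3.56 ± 0.44, 2.55 ± 0.44, 2.79 ± 0.43 and 2.40 ± 0.43 in that order, and without replicate 1 of the controls they were 3.91, 2.91, 3.14 and 2.76. The higher level was thus present at 4 h as well as at 24 h. Both MnDps 24 h libraries lay above all other libraries, while the levels of MnDps 4 h, Dps 24 h and Dps 4 h overlapped. T cells also carry Ccr7, and the summed level of 9 T-cell genes was 7.82 to 9.84 CPM in MnDps 24 h, 7.69 to 9.65 CPM in Dps 24 h, 5.08 to 8.20 CPM in MnDps 4 h and 5.17 to 5.86 CPM in Dps 4 h kidneys, against 5.79 to 10.8 CPM in controls. Each of the 3 genes most like Ccr7 over the 14 libraries, Carhsp1, Fcer1g and Rac2, had a Pearson correlation of 0.93 with it on log2 CPM, a description over libraries that share their group differences.

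Apol7c, an apolipoprotein L gene that mouse dendritic cells make on activation (chr15:77524852-77533316), was also above every control in every treated library. Its level was 1.95 and 2.05 CPM in MnDps 24 h, 1.39, 1.81 and 0.956 CPM in Dps 24 h, 1.48, 2.06 and 2.94 CPM in MnDps 4 h and 3.28, 3.45 and 3.69 CPM in Dps 4 h kidneys, against 0.110, 0.172 and 0.296 CPM in controls. The highest group was Dps 4 h, whose libraries lay above all others. Against control, the log2 fold changes were 3.19 ± 0.41 in MnDps 24 h, 2.66 ± 0.40 in Dps 24 h, 3.29 ± 0.38 in MnDps 4 h and 3.98 ± 0.36 in Dps 4 h kidneys. Leaving out replicate 3 of the controls raised them to 3.79, 3.25, 3.89 and 4.57. The windows of 75 bases that Apol7c shares with Apol7a, Apol7b, Apol7e, Gm36329 and Gm8221 make up 14.8% of its transcript, so part of its reads could be split among these copies, of which the first 3 had 0 to 36 counts in a group. Irf7, Lgals3bp and Itgam were most like Apol7c over the 14 libraries, with correlations of 0.95, 0.95 and 0.93.

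**Figure D1:**
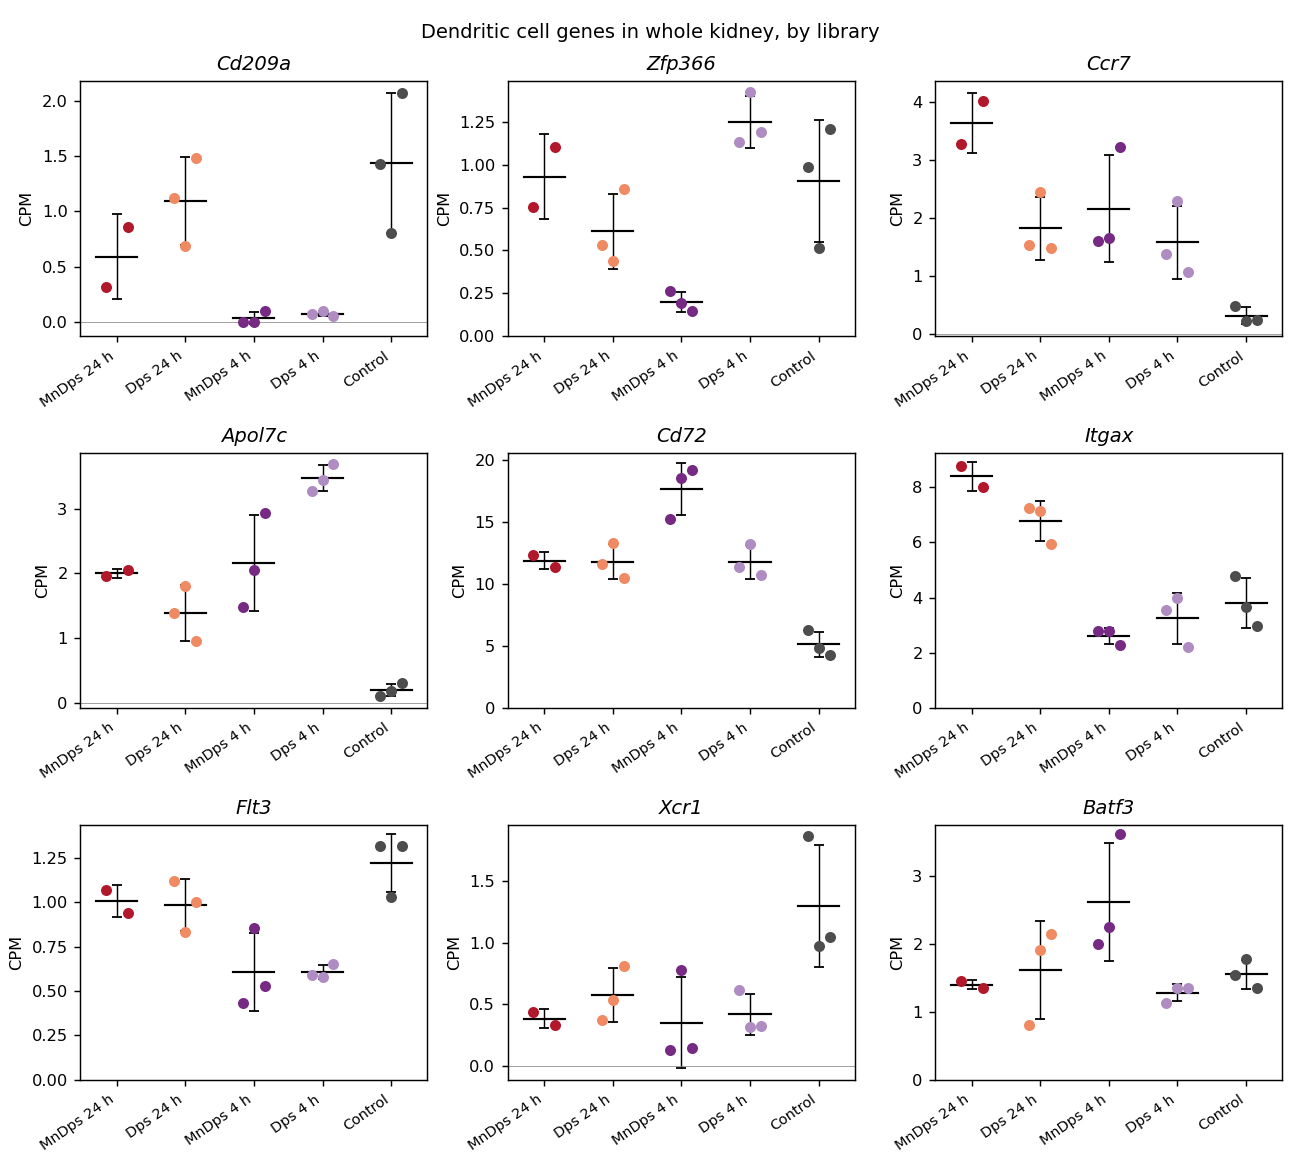
Level in CPM (y axis) of the 9 dendritic cell genes in each library of the 5 groups (x axis); points are libraries, horizontal lines group means and bars SD (n = 2 for MnDps 24 h, 3 for the others). Cd209a is near 0 in all 6 libraries of the 4 h groups, Zfp366 is low only in MnDps 4 h kidneys, and Ccr7 and Apol7c lie above the controls in every treated library.

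Cd72, an inhibitory receptor of B cells that dendritic cells and macrophages carry as well (chr4:43446462-43454628), averaged 11.9 ± 0.688 CPM in MnDps 24 h (SD, n = 2), 11.8 ± 1.42 CPM in Dps 24 h, 17.7 ± 2.13 CPM in MnDps 4 h and 11.8 ± 1.34 CPM in Dps 4 h kidneys, against 5.13 ± 1.01 CPM in controls (SD, n = 3 each). Every treated library lay above every control, and the MnDps 4 h libraries, at 15.2, 18.6 and 19.2 CPM, lay above all others. The log2 fold changes against control were 1.23 ± 0.17, 1.22 ± 0.15, 1.80 ± 0.15 and 1.22 ± 0.15 in the order of the means, and 1.38, 1.38, 1.95 and 1.38 without replicate 1 of the controls. B cells also carry it, and 8 of their genes summed to 4.14 to 4.22 CPM in MnDps 24 h, 3.62 to 5.31 CPM in Dps 24 h, 2.45 to 3.71 CPM in MnDps 4 h and 2.97 to 3.36 CPM in Dps 4 h kidneys, against 3.84 to 4.28 CPM in controls. The defining B-cell genes Ms4a1 and Pax5 averaged at most 0.153 and 0.136 CPM in a group, and Fcer2a was at 0 counts in MnDps 4 h kidneys. Reads of Cd72 are uncertain, since 53.8% of its 75-base windows lie in exons that Tesk1 covers on the other strand and the strand setting of the counting is not given. Tesk1 averaged 48.4 CPM in MnDps 24 h, 52.4 CPM in Dps 24 h, 44.6 CPM in MnDps 4 h and 44.5 CPM in Dps 4 h kidneys, against 47.7 CPM in controls, and passed in none of the comparisons against control with edgeR.

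Itgax, the integrin subunit CD11c (chr7:128129547-128150657), separated the times. Its level was 8.76 and 8.03 CPM in MnDps 24 h, 7.26, 7.15 and 5.93 CPM in Dps 24 h, 2.78, 2.80 and 2.27 CPM in MnDps 4 h and 3.54, 3.99 and 2.22 CPM in Dps 4 h kidneys, against 4.78, 3.67 and 2.96 CPM in controls. All 5 libraries at 24 h exceeded every control, all 3 of MnDps 4 h were below every control, and Dps 4 h overlapped them. Log2 fold changes against control were 1.16 ± 0.23 in MnDps 24 h, 0.86 ± 0.21 in Dps 24 h, -0.51 ± 0.22 in MnDps 4 h and -0.17 ± 0.21 in Dps 4 h kidneys. Without replicate 1 of the controls they were 1.35, 1.04, -0.33 and 0.02, and without replicate 3 of Dps 4 h the value in those kidneys was 0.0248, so its sign turned with either library. Its partner Itgb2, the shared beta chain, rose at 24 h by 0.92 ± 0.21 after MnDps (adjusted p = 0.0108) and by 0.64 ± 0.19 after Dps (adjusted p = 0.0274) in the edgeR fit. These calls held in 20 and 15 of 22 alternatives. The MnDps call was lost without replicate 1 (0.99) or 2 (0.82) of that group, and the Dps call without any 1 of its libraries (0.55 to 0.69) or without replicate 2 (0.43) or 3 (0.65) of the controls. The 12 macrophage genes summed to 242 to 266 CPM in MnDps 24 h, 244 to 266 CPM in Dps 24 h, 158 to 168 CPM in MnDps 4 h and 181 to 193 CPM in Dps 4 h kidneys, against 196 to 235 CPM in controls. In that order of groups 6, 5, 1 and 1 of the 12 were called higher and 2, 1, 7 and 4 called lower. Among all tested genes the shares called higher were 4.93%, 9.64%, 22.9% and 8.33%, and those called lower 8.39%, 10.4%, 22.7% and 6.27%, in the same order of groups. The 5 pan-leukocyte genes summed to 70.1 to 71.7 CPM in MnDps 24 h, 69.7 to 78.1 CPM in Dps 24 h, 39.2 to 53.3 CPM in MnDps 4 h and 40.7 to 44.0 CPM in Dps 4 h kidneys, against 37.9 to 53.7 CPM in controls. Their part in the Itgax difference was not tested.

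Flt3, the growth factor receptor of conventional dendritic cells (chr5:147330741-147400489), was below the controls at 4 h. It ran from 0.942 to 1.07 CPM in MnDps 24 h, from 0.833 to 1.12 CPM in Dps 24 h, from 0.434 to 0.855 CPM in MnDps 4 h and from 0.580 to 0.651 CPM in Dps 4 h kidneys, against 1.03 to 1.32 CPM in controls. The libraries of both 4 h groups lay below every control, by -1.0013 ± 0.29 after MnDps and -1.03 ± 0.28 after Dps, and those at 24 h overlapped the controls, at -0.30 ± 0.32 and -0.32 ± 0.28. Flt3l, its ligand, averaged 8.19 CPM in MnDps 24 h, 7.98 CPM in Dps 24 h, 6.12 CPM in MnDps 4 h and 4.60 CPM in Dps 4 h kidneys, against 6.79 CPM in controls.

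Xcr1, the chemokine receptor of the first type (chr9:123852315-123862029), was below the controls in every treated library. It measured 0.441 and 0.328 CPM in MnDps 24 h, 0.374, 0.539 and 0.813 CPM in Dps 24 h, 0.130, 0.777 and 0.145 CPM in MnDps 4 h and 0.614, 0.314 and 0.325 CPM in Dps 4 h kidneys, against 1.87, 0.975 and 1.05 CPM in controls. The 4 treated groups overlapped one another. The log2 fold changes were -1.75 ± 0.62, -1.13 ± 0.50, -1.78 ± 0.52 and -1.55 ± 0.48 in the order of the levels. Replicate 2 of MnDps 4 h decided much of the third value, which was -3.19 without it, and without replicate 1 of the controls the values were -1.43, -0.81, -1.47 and -1.23.

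Batf3 (chr1:191097847-191108945) encodes the factor on which the first type depends, and its libraries stood clear of the controls in a single group. It had 1.45 and 1.35 CPM in MnDps 24 h, 0.801, 1.91 and 2.15 CPM in Dps 24 h, 2.00, 2.25 and 3.62 CPM in MnDps 4 h and 1.13, 1.35 and 1.36 CPM in Dps 4 h kidneys, against 1.54, 1.78 and 1.35 CPM in controls. The MnDps 4 h libraries lay above all controls, with a log2 fold change of 0.77 ± 0.30, which was 0.47 without replicate 3 of that group and 0.26 after a correction for transcript length and GC content. The other differences were -0.13 ± 0.37 in MnDps 24 h, 0.09 ± 0.32 in Dps 24 h and -0.27 ± 0.31 in Dps 4 h kidneys. The longest Batf3 transcript has 1110 bases.

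**Figure D2:**
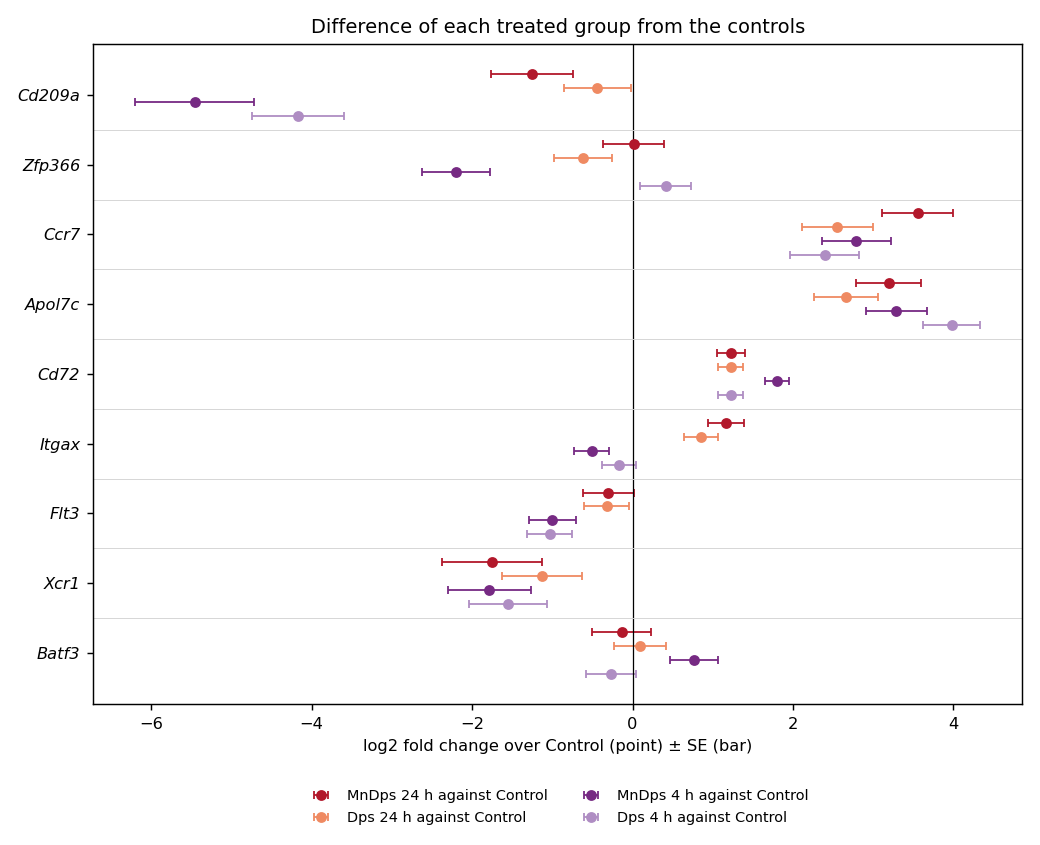
Log2 fold change of each dendritic cell gene (y axis) over Control in the 4 treated groups (x axis, log2 scale); points are fitted values and bars SE. Ccr7, Apol7c and Cd72 lie to the right of 0 in all 4 groups, Itgax lies right of 0 at 24 h and left of it at 4 h, and Cd209a reaches -5.46 in MnDps 4 h kidneys.

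Counted over the set against control, 4 of the 9 members passed the threshold higher in MnDps 24 h kidneys, where 4.93% of all tested genes passed higher, 8.39% lower and 13.3% in either direction. In Dps 24 h kidneys 4 members passed higher, where 9.64% of all tested genes passed higher, 10.4% lower and 20.1% in either direction. In MnDps 4 h kidneys 4 members passed higher and 4 lower, against 22.9% and 22.7% of all tested genes, 45.6% in all. In Dps 4 h kidneys 3 passed higher and 3 lower, against 8.33% and 6.27% of all tested genes, 14.6% in all. These contrasts chose the members, so nothing is read from the counts, and the 4 comparisons share the control libraries. Median log2 fold changes of the members were 0.01, 0.09, -0.51 and -0.17 in that order of groups, against medians between -0.02 and 0.02 over all tested genes. Some of the calls rested on single libraries or settings. Xcr1 in Dps 4 h kidneys and Batf3 in MnDps 4 h kidneys missed the threshold in 8 and 17 alternatives. Flt3 in Dps 4 h kidneys missed it without replicate 1 (-0.998) or 2 (-0.99) of that group or replicate 3 of the controls (-0.96). Itgax missed it in MnDps 24 h kidneys without their replicate 1 (1.10), and in Dps 24 h kidneys without their replicate 2 (0.80) or control replicate 3 (0.68).

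Between the times, the members fell into different patterns. Cd209a was higher at 24 h than at 4 h by 4.21 ± 0.92 after MnDps and 3.73 ± 0.60 after Dps, and Itgax by 1.67 ± 0.23 and 1.02 ± 0.20, with no overlap of libraries in either. Without replicate 2 of MnDps 24 h the Cd209a difference after MnDps was 3.24 and no longer past the threshold, and without replicate 3 of MnDps 4 h it was 6.96. After Dps it was 4.46 with a term for deep libraries. Zfp366 was higher at 24 h after MnDps (2.21 ± 0.47) and lower after Dps (-1.03 ± 0.34), and Apol7c differed by -0.10 ± 0.31 after MnDps and by -1.32 ± 0.27 after Dps. Cd72 was lower at 24 h after MnDps by -0.58 ± 0.16 and differed by -0.0014 ± 0.14 after Dps. After MnDps 3 members passed higher at 24 h and 1 lower, against 10.1% and 11.7% of tested genes, 21.8% in all. After Dps 2 passed higher and 2 lower, against 22% and 22.6%, 44.6% in all. Nothing is read from these counts, since the groups include those the set was chosen on.

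The direct comparison of the proteins at the same time was not part of that choice, apart from the members picked for that time. At 4 h, Batf3 and Cd72 were higher in MnDps than in Dps kidneys and Apol7c was lower. Batf3 differed by 1.03 ± 0.30 (edgeR adjusted p = 0.011, range 0.00388 to 0.178 in 22 alternatives), and its call was lost with the length and GC correction (0.54), without replicate 3 of MnDps 4 h (0.72), without replicate 1 of Dps 4 h (0.93) and with a term for deep libraries (0.87). Cd72 differed by 0.58 ± 0.14 (edgeR adjusted p = 0.00345, range 0.000635 to 0.0512) and missed the threshold only with the term for deep libraries (0.54). For Apol7c the difference was -0.69 ± 0.26 (edgeR adjusted p = 0.0408, range 0.00363 to 0.215), and it missed the threshold in 7 of 22 alternatives, among them those without replicate 1 (-0.48) or 2 (-0.66) of MnDps 4 h and those without replicate 1 (-0.74), 2 (-0.69) or 3 (-0.66) of Dps 4 h. With Zfp366, 2 members passed higher and 2 lower, against 20.8% and 20.7% of all tested genes, 41.5% in either direction, a share near that of the members.

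The other members did not pass at 4 h, and their intervals show what the data allow. Ccr7 differed by 0.39 with a 95% interval of -0.30 to 1.08 (edgeR adjusted p = 0.363), Itgax by -0.35 with an interval of -0.80 to 0.11 (adjusted p = 0.221) and Flt3 by 0.03 with an interval of -0.62 to 0.68 (adjusted p = 0.947). For Xcr1, the interval of -1.44 to 0.97 was the widest of the 4, around -0.23. Cd209a had too few counts at 4 h for a comparison of the proteins, with 2 against 8 counts. These gave a pooled ratio of 0.368 (exact 95% interval 0.0380 to 1.84).

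At 24 h, none of the 9 members passed with edgeR, against 0.815% of all tested genes (0.148% higher and 0.666% lower). The 1 member with an unadjusted edgeR p under 0.05 was Ccr7, which was picked for this time, so nothing is read from it. DESeq2 and limma voom each called 0 members as well. Cd209a differed by -0.81 with a 95% interval of -1.94 to 0.32 (edgeR adjusted p = 0.472, range 0.363 to 0.852), and by -1.78 without replicate 2 of MnDps 24 h, Zfp366 by 0.63 with an interval of -0.24 to 1.49 (adjusted p = 0.468) and Itgax by 0.31 with an interval of -0.16 to 0.77 (adjusted p = 0.518). The interval of Cd72 was narrower, -0.34 to 0.35 around 0.01. Ccr7 and Apol7c, picked for this time, were higher in both MnDps libraries than in all 3 of Dps, by 1.002 ± 0.36 and 0.53 ± 0.32.

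**Figure D3:**
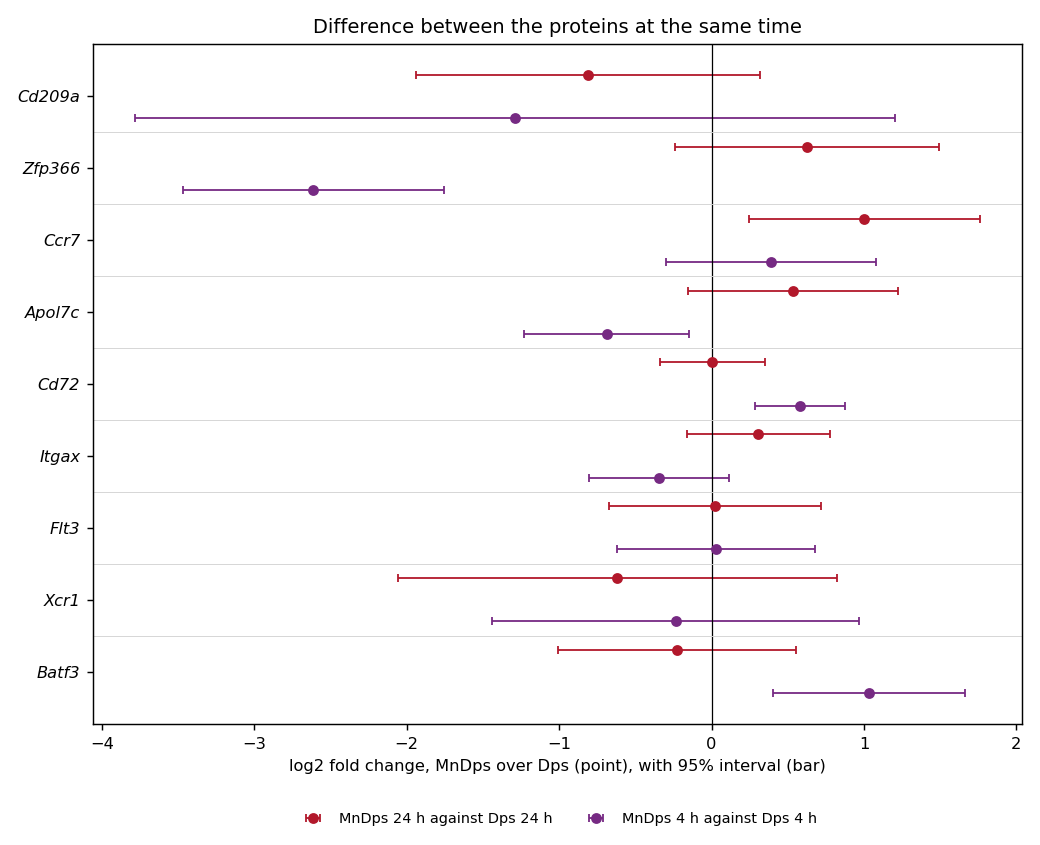
Log2 fold change of MnDps over Dps (x axis) for each dendritic cell gene (y axis) at 24 h and at 4 h; points are fitted values and bars 95% intervals. Zfp366 at 4 h, picked for that time, lies farthest from 0, at -2.61. The 24 h intervals include 0 for all members but Ccr7, which was picked for 24 h, so nothing is read from its interval.

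Whether the difference between the proteins changed with time was asked with the interaction term, (MnDps 24 h minus MnDps 4 h) minus (Dps 24 h minus Dps 4 h). Zfp366 stood at 3.24 ± 0.58 and Apol7c at 1.22 ± 0.41, 2 of 9 members past the threshold, both higher, where 13.7% of tested genes passed higher, 15.7% lower and 29.4% in all. The values that chose these 2 genes enter the term, so nothing is read from this count, and Apol7c was past the threshold in 13 of 22 alternatives. Cd72 at -0.57 ± 0.21 (edgeR adjusted p = 0.054, range 0.0259 to 0.186) and Batf3 at -1.26 ± 0.47 (adjusted p = 0.0557, range 0.0115 to 0.298) lay just above the threshold, which they crossed in 8 and 3 of 22 alternatives. For Itgax the term was 0.65 with a 95% interval of -0.0026 to 1.31 (adjusted p = 0.126), for Flt3 -0.01 with an interval of -0.93 to 0.92 and for Xcr1 -0.38 with an interval of -2.28 to 1.51.

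Genes of mature dendritic cells, a state that includes Ccr7, were among those higher at 4 h. Of 20 tested genes of this list, 12 passed in MnDps 4 h and 10 in Dps 4 h kidneys, all of them higher, with medians of 0.85 and 0.63, while 22.9% of all tested genes passed higher in MnDps 4 h and 8.33% in Dps 4 h kidneys. This and the other gene lists were chosen with earlier results of these data known, so nothing is read from their counts of calls. Which cells made these RNAs cannot be told from whole kidney. Ccl22, a chemokine of mature dendritic cells, rose by 3.29 ± 0.51 in MnDps 4 h (edgeR adjusted p = 0.000149) and by 3.42 ± 0.50 in Dps 4 h kidneys (adjusted p = 0.000167). Replicate 3 of MnDps 4 h held 5.93 CPM of Ccl22 beside 1.69 and 1.67 CPM in the others of its group, and without it the MnDps difference was 2.43. The same library was the highest of its group for Cd40, Ccl19, Batf and Batf2. The costimulatory receptor Cd40 rose by 2.72 ± 0.28 and 2.55 ± 0.28 in the same groups, and Cd274, which encodes PD-L1, by 2.64 ± 0.23 and 2.93 ± 0.23. Neither Ccl22 nor Cd40 passed at 24 h, when Ccl22 measured 0.504 and 0.246 CPM in MnDps kidneys and 0.587, 0.490 and 0.717 CPM in Dps kidneys, against 0.329, 0.401 and 0.242 CPM in controls. Summed levels of monocyte and neutrophil genes were also higher at 4 h, while the macrophage sums given above lay below every control. The 8 monocyte genes summed to 95.9 to 142 CPM in MnDps 4 h and 84.9 to 120 CPM in Dps 4 h kidneys, against 46.0 to 56.5 CPM in controls. Of these, 5 passed higher in each 4 h group, and 2 passed lower in MnDps 4 h kidneys, where 22.7% of all tested genes passed lower. Neutrophil genes summed to 10.6 to 18.9 CPM in MnDps 4 h and 4.93 to 7.51 CPM in Dps 4 h kidneys, against 0.573 to 1.37 CPM in controls. The 8 adipocyte genes summed to 4636 to 7071 CPM in MnDps 4 h and 3892 to 6421 CPM in Dps 4 h kidneys, against 3058 to 4426 CPM in controls. Of the adipocyte genes 4 of 8 passed higher in each 4 h group, among them Retn, Cidec and Lipe. The Retn calls held in 11 of 22 alternatives in MnDps 4 h and 17 in Dps 4 h kidneys, those of Cidec in 15 and 18. Adipoq, not among these named calls, averaged 9.27 CPM in MnDps 4 h and 13.5 CPM in Dps 4 h kidneys, against 2.33 CPM in controls. Most of the adipocyte sums thus came from other genes of that list, which includes Pck1, so they are not read as a level of fat cells. The part of monocytes, macrophages, neutrophils and fat cells in the values was not tested. At 24 h, 6 of the 20 passed higher and 1 lower after MnDps, with Stat4 at 1.62 ± 0.45, the signalling adaptor Traf1 at 1.18 ± 0.22 and Cacnb3 at 0.88 ± 0.18. After Dps 1 passed higher, again Traf1 (0.76 ± 0.20), and 1 lower, Socs2 (-0.80 ± 0.24). Over all tested genes 4.93% passed higher and 8.39% lower after MnDps, and 9.64% and 10.4% after Dps. At 24 h the calls of Stat4 held in 16 of 21 alternatives, Cacnb3 in 21 of 22, Traf1 after Dps in 19 and Socs2 in 14. Stat4 and Cacnb3 were lost without replicate 2 of MnDps 24 h (1.54 and 0.80). Stat4 was lost also without its replicate 1 (1.67) or control replicate 3 (1.24). Traf1 and Socs2 were lost after Dps without replicate 2 of Dps 24 h (0.62 and -0.62) or replicate 1 (0.72 and -0.83) or 3 (0.80 and -0.90) of the controls. Socs2 was lost also without replicate 1 of Dps 24 h (-0.84) or 2 of the controls (-0.70).

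Ccl19, a ligand of Ccr7, rose at 4 h, by 2.71 ± 0.29 in MnDps (edgeR adjusted p = 1.86e-05) and 2.00 ± 0.29 in Dps kidneys (adjusted p = 0.000392). Its level was 20.2, 25.2 and 46.2 CPM in MnDps 4 h and 18.9, 18.9 and 17.8 CPM in Dps 4 h kidneys, against 5.65, 4.99 and 3.61 CPM in controls. It was higher in MnDps 4 h than in Dps 4 h kidneys by 0.71 ± 0.25 (adjusted p = 0.0391 in edgeR, range 0.00601 to 0.611). That call held in 9 of 22 alternatives, and the difference was 0.27 without replicate 3 of MnDps 4 h. Ccl21a, the other ligand, was at 0 counts in all 5 groups. Sequence that it may share with other genes was not checked, and the treatment of multi-mapping reads is not given. Nothing is therefore read from the 0. Csf1, the growth factor of macrophages, rose by 2.30 ± 0.16 and 2.51 ± 0.16 in the MnDps 4 h and Dps 4 h kidneys, and Csf2rb, a subunit of the GM-CSF receptor, by 0.96 ± 0.19 and 1.24 ± 0.19. The ligand of Xcr1, Xcl1, averaged 0.424 CPM in MnDps 24 h, 0.355 CPM in Dps 24 h, 0.439 CPM in MnDps 4 h and 0.380 CPM in Dps 4 h kidneys, against 0.223 CPM in controls.

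Of 7 tested genes of the second type, 1 passed higher and 3 lower in MnDps 4 h kidneys, near the 45.6% of all tested genes, and 1 higher and 2 lower in Dps 4 h kidneys (14.6% of all tested genes). Their median log2 fold changes were -0.28 in MnDps 4 h and 0.26 in Dps 4 h kidneys. Ltb was the gene higher in MnDps 4 h kidneys (1.41, called in 20 of 22 alternatives). In Dps 4 h kidneys it was Notch2 (0.30, called in 17 of 22). Mgl2, a lectin gene like Cd209a, was lower than control at both times. It fell by 2.00 ± 0.29 on the log2 scale in MnDps 24 h (edgeR adjusted p = 0.00129), by 0.85 ± 0.23 in Dps 24 h (adjusted p = 0.0172), by 2.34 ± 0.26 in MnDps 4 h (adjusted p = 4.59e-06) and by 1.98 ± 0.24 in Dps 4 h kidneys (adjusted p = 1.67e-05). Cd209a was near 0 at 4 h and overlapped the controls at 24 h, while no treated library of Mgl2 reached the controls. The Mgl2 call in Dps 24 h kidneys was lost without control replicate 3 (-0.85) or their own replicate 2 (-0.69). The related lectin Clec10a fell by 2.15 ± 0.52 in MnDps 4 h (adjusted p = 0.00366) and by 1.64 ± 0.47 in Dps 4 h kidneys (adjusted p = 0.0273) in the same fit. The MnDps value was -3.18 without replicate 3 of that group, and the Dps call was lost without replicate 1 or 3 of the controls or replicate 2 or 3 of Dps 4 h. Mrc1, of the macrophage list, was also called lower, at -2.20 in MnDps 4 h and -1.32 in Dps 4 h kidneys. Fcgr1 of that list was called higher, at 2.28 and 1.81. Which cells the falls of Mgl2 and Clec10a came from was not tested. Of 9 tested genes of the first type, 3 passed higher and 3 lower in MnDps 4 h and 2 higher and 1 lower in Dps 4 h kidneys, against the same shares of all genes. The transcription factor Irf8 rose by 1.90 ± 0.12 and 1.75 ± 0.12 and the RNA sensor Tlr3 by 1.60 ± 0.13 and 1.90 ± 0.13 in MnDps 4 h and Dps 4 h kidneys, genes that other cells of the kidney also make. Clec9a, a receptor for dead cells that the first type carries, fell by 1.07 ± 0.28 in MnDps 4 h kidneys (edgeR adjusted p = 0.00594), and stood at -0.51 ± 0.26 in Dps 4 h kidneys, where it did not pass. Wdfy4, needed for cross-presentation, fell by 0.76 ± 0.19 in MnDps 4 h (adjusted p = 0.00429) and by 0.71 ± 0.19 in Dps 4 h kidneys (adjusted p = 0.0163) in the same fit. The Dps call was lost without control replicate 3 (-0.63) or replicate 2 of Dps 4 h (-0.62).

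**Figure D4:**
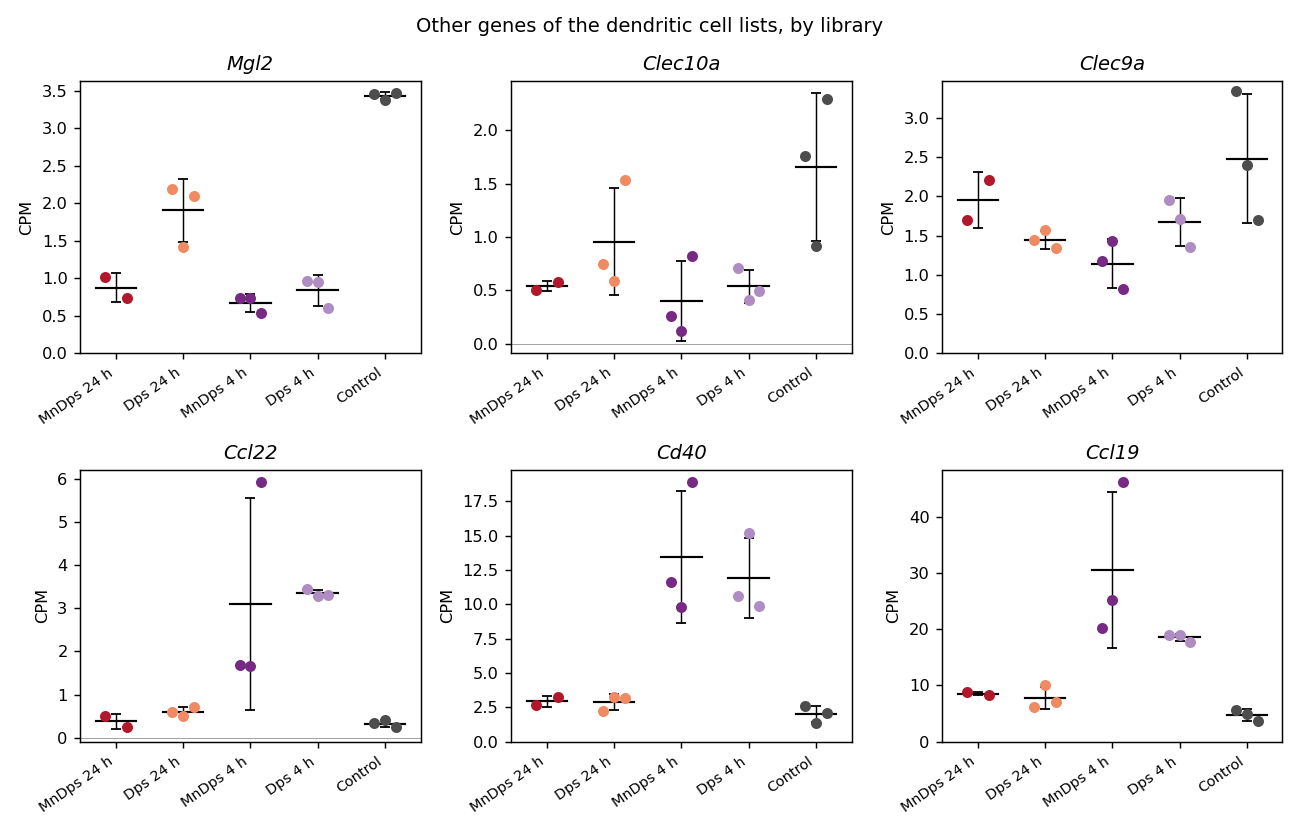
Level in CPM (y axis) of 6 further genes, lectin genes of the dendritic cell lists in the upper row and genes of the mature list with Ccl19 in the lower row, in each library of the 5 groups (x axis); points are libraries, lines means and bars SD. Mgl2 lies below the controls in every treated library, and Ccl22, Cd40 and Ccl19 are highest in the 4 h groups.

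Of 16 tested core genes of conventional dendritic cells, 1 passed higher and 4 lower in MnDps 4 h kidneys, where 45.6% of all tested genes passed, and 1 higher and 2 lower in Dps 4 h kidneys, where 14.6% did, with medians of -0.41 and -0.19. The gene that rose was Ciita, the master regulator of MHC class II, by 2.06 ± 0.18 and 2.64 ± 0.18, while the class II genes H2-Eb1 and H2-Aa fell by 0.80 ± 0.20 and 0.73 ± 0.22 in Dps 4 h kidneys. These calls held in 19 and 8 of 22 alternatives. H2-Eb1 was lost without replicate 2 (-0.81) or 3 (-0.70) of Dps 4 h. Without replicate 1 of the controls H2-Aa was at -0.41. At 24 h the medians were -0.08 after MnDps and -0.05 after Dps, with 1 and 2 genes passing lower (8.39% and 10.4% of all tested genes), Ciita among them after Dps (-0.80 ± 0.22). Ciita was not past the threshold there without control replicate 1 (-0.55) or without replicate 1 (-0.79) or 2 (-0.80) of Dps 24 h.

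Relatives of Batf3 rose at 4 h with both proteins. Batf rose by 3.41 ± 0.39 in MnDps 4 h (edgeR adjusted p = 6.65e-06) and by 2.93 ± 0.39 in Dps 4 h kidneys (adjusted p = 4.99e-05), and Batf2 by 2.91 ± 0.47 (adjusted p = 0.000345) and 2.45 ± 0.47 (adjusted p = 0.00318). Replicate 2 of the controls held 2.64 CPM of Batf2, against 0.659 and 0.457 CPM in the other controls, and without it these differences were 3.97 and 3.51. Both are AP-1 family factors, and the level of Batf was 2.17, 2.25 and 4.20 CPM in MnDps 4 h and 1.89, 2.49 and 1.68 CPM in Dps 4 h kidneys, against 0.384, 0.229 and 0.215 CPM in controls. All 4 tested relatives of Apol7c, Apol6, Apol9a, Apol9b and Apol10b, rose in both 4 h groups, by 3.08 to 4.42 in MnDps and 3.20 to 3.84 in Dps kidneys. Without control replicate 2 Apol6 was at 3.77 and 4.44. At 24 h Apol9b passed after MnDps, at 1.36 ± 0.35 (adjusted p = 0.0214 in edgeR). The call was lost without replicate 1 of MnDps 24 h (0.92) or replicate 1 (1.22) or 3 (1.24) of the controls. The values of the 4 genes ran from 0.48 to 1.36 after MnDps and from -0.26 to 1.53 after Dps, while Apol7c was at 3.19 and 2.66. Apol7c was picked for its higher level at 24 h, so nothing is read from that contrast.

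**Figure D5:**
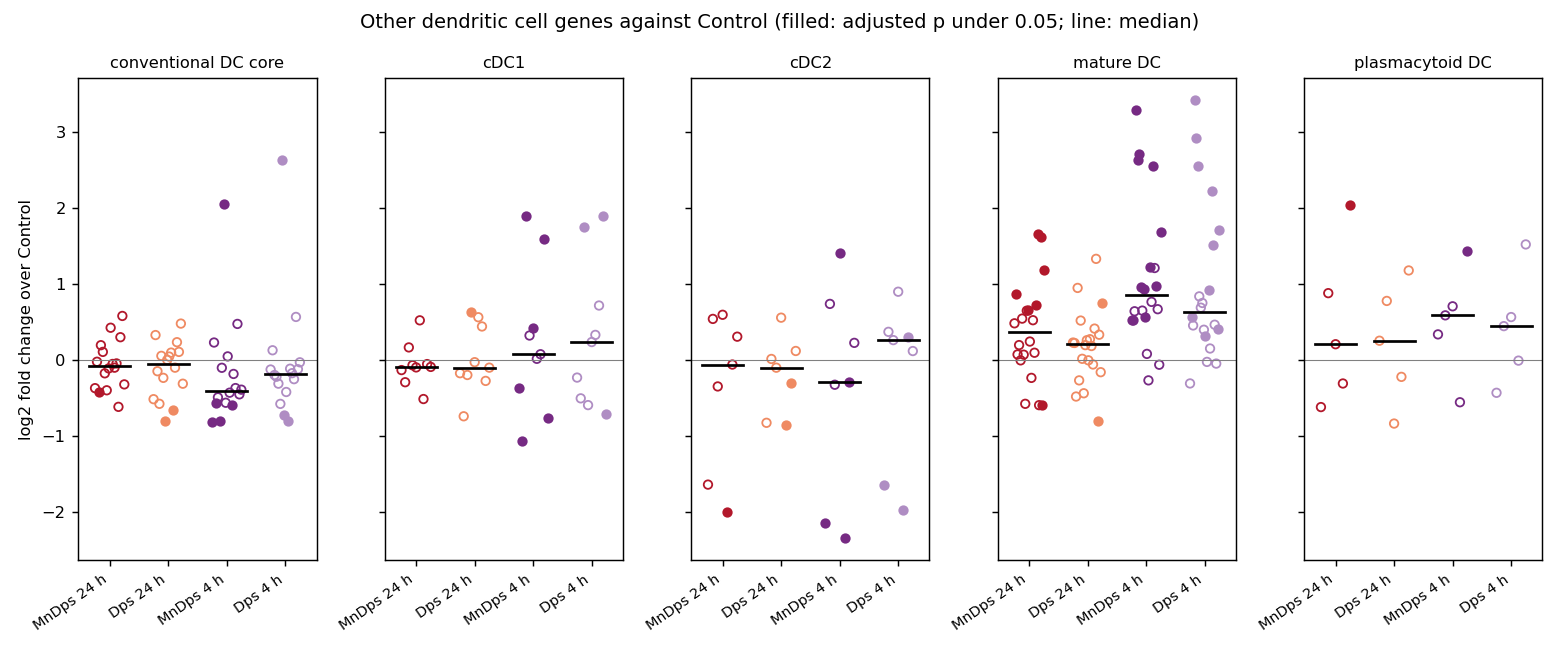
Log2 fold change over Control (y axis) of the other genes of 5 dendritic cell lists in the 4 treated groups (x axis); each point is a gene, filled where the adjusted p was under 0.05, and lines mark medians. The mature list shows the most filled points at 4 h, 12 in MnDps and 10 in Dps kidneys.

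Compared per kilobase of transcript, Cd72 led in every group, and the genes behind it differed. In MnDps 24 h kidneys Cd72 led with 4.60 CPM per kilobase, followed by Itgax with 2.07, Ccr7 with 1.84 and Batf3 with 1.26. In MnDps 4 h kidneys Cd72 stood at 6.84, Batf3 at 2.36, Ccr7 at 1.10 and Apol7c at 1.05 CPM per kilobase, and Cd209a at 0.0217. Among controls the order was Cd72 with 1.98, Batf3 with 1.40, Cd209a with 0.968 and Itgax with 0.940 CPM per kilobase, and Apol7c was lowest with 0.0935. Over the 14 libraries the closest pair of members was Ccr7 and Cd72, with a Pearson correlation of 0.87 on log2 CPM, followed by Cd209a and Flt3 with 0.84, and the most opposed was Apol7c and Xcr1 with -0.74. Ldb2, H2-Ob and Ehd3 were most like Cd209a, with correlations of 0.95, 0.94 and 0.94, and Zc3h11a and Herc1, whose longest transcripts have 4396 and 15153 bases, were among those most like Zfp366, with 0.95 and 0.94. These correlations describe 14 libraries that share group differences and depth.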

How the data were processed

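Messenger RNA of whole mouse kidney was sequenced with paired reads from stranded libraries (TruSeq kit), per the labels' protocols. The authors deposited a table of raw read counts per gene, made with STAR and featureCounts on mm10 per the submitters' processing notes; their versions, strand setting and treatment of multi-mapping reads are not stated there.

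Samples were grouped by treatment and time from the labels. Counts were fitted over all 5 groups with edgeR 4.0.16 (R 4.3.3), after the group-wise expression filter kept 14854 of 24421 genes, with TMM scaling and the quasi-likelihood test, and p-values were adjusted within each comparison. The script was tested on simulated data. Totals of 15097093 to 42074942 counts limit the precision for genes near 1 CPM. The 9 members and all gene lists were chosen with earlier results of these data known. Named genes are the members, per list and comparison up to 3 passing genes with the largest changes and a mean of at least 1 CPM, the relatives of Cd209a and Apol7c, and the 3 genes most correlated with each of Cd209a, Zfp366, Ccr7 and Apol7c, of which 1 is not reported here. Named outside that rule, after their values were seen, were Zbtb46, Flt3l, Xcl1, Ccl21a, Tesk1, Adipoq, Wdfy4 after MnDps, the B-cell genes, and the values of named genes in groups where they did not pass. Alternatives were other size factors, no filter or a stricter filter, DESeq2 1.42.0, limma 3.58.1 voom with library weights, a length and GC correction, a fit of only the groups compared, and leaving out each library. A term for libraries over 30000000 counts was chosen after seeing the data. Sequences and motif shares come from RefSeq, and gene positions and transcripts from GENCODE on GRCm38.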

Additional observations from a re-analysis of the deposited data

Results flagged for a closer look

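The log2 fold change of MnDps over Dps in Zfp366 was -2.61 at 4 h and 0.63 at 24 h, an interaction term of 3.24. Its sign changed, and the 24 h difference did not pass. The level at 24 h was 0.757 and 1.11 CPM in MnDps against 0.534, 0.441 and 0.860 CPM in Dps kidneys. At 4 h it was 0.261, 0.194 and 0.145 CPM in MnDps against 1.13, 1.43 and 1.19 CPM in Dps kidneys. For Apol7c the same term was 1.22, past the threshold in 13 of 22 alternatives. Both genes were chosen on values that enter this term, so it is a description.

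Itgax lay on opposite sides of the controls at the times after MnDps, at 1.16 in MnDps 24 h kidneys, where both libraries were above every control, and at -0.51 in MnDps 4 h kidneys, where all 3 were below every control. This difference was not tested in that form.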

How the results depend on the processing

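Over the 22 alternatives, Zfp366 at 4 h kept its lower level in MnDps than in Dps kidneys. The gene was picked for a low level at 4 h, so this is a description. No paired analysis was possible because the labels give no replicate numbers, and the numbers used here follow accession order. Members at about 1 CPM or less, such as Cd209a at 4 h and Xcr1, rest on few counts. The causes of the changes below were not tested.

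For MnDps against Dps at 4 h, 1 member passed with the term for deep libraries, and 2 to 4 when 1 library was left out; at 24 h, 1 passed when only the groups compared were fitted. From 4 h to 24 h after MnDps, 1 to 5 passed with 1 library left out. For the interaction, 4 passed with DESeq2, 1 with the term for deep libraries and 1 to 3 with 1 library left out.

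Values near 0 changed sign. With 1 library left out, the 4 h difference of the proteins ran from -0.0245 to 0.7547 for Ccr7, -0.3253 to 0.2189 for Flt3 and -1.6294 to 0.1913 for Xcr1, and the 24 h difference from -0.0713 to 0.0997 for Cd72, -0.0865 to 0.1223 for Flt3 and -0.5414 to 0.0314 for Batf3. At 24 h Cd72 was at -0.0094 with no filter, -0.041 with voom and -0.054 with the length and GC correction, which put Flt3 at -0.0552. The interaction ran from -0.4954 to 3.2376 for Cd209a, -0.1962 to 0.3478 for Flt3 and -0.8118 to 1.0092 for Xcr1 with 1 library left out. Flt3 was at 0.0016 with no filter and 0.0092 with voom, and Cd209a at -0.2496 with the term for deep libraries.

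Counts over all genes moved more. The length and GC correction gave 3728 calls (1220 higher, 2508 lower) in place of 2168 (1237 higher, 931 lower) for Dps 4 h, 1488 in place of 2979 for Dps 24 h, 1161 in place of 1978 for MnDps 24 h, 3696 (2241 higher, 1455 lower) in place of 6158 for MnDps against Dps at 4 h and 2358 (673 higher, 1685 lower) in place of 4368 for the interaction. The term for deep libraries gave 1637 for Dps 24 h, 1033 for MnDps 24 h, 3558 for MnDps against Dps at 4 h and 4225 in place of 6626 for Dps 24 h against 4 h. For MnDps against Dps at 24 h, the 121 calls became 477 with DESeq2, 697 with voom, 727 with only the groups compared and 68 with the term for deep libraries, and 5 to 598 with 1 library left out. The lowest counts with 1 library left out were 1435 for Dps 4 h without its replicate 2, 843 for Dps 24 h without control replicate 3, 300 for MnDps 24 h without its replicate 1, 1336 in place of 3242 for MnDps 24 h against 4 h, and 2724 for the interaction. Fitting only the groups compared gave 1878 for MnDps 24 h against 4 h.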
